A study of Mus musculus with 4 samples.

Results

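The immunoglobulin V gene arrays of the mouse were taken as all RefSeq genes whose symbols begin with Ighv on chromosome 12 or Igkv on chromosome 6, each with 1 kb on either side. The rule found 345 V genes among 49554 RefSeq genes on the autosomes and X. Of these, 183 belonged to the heavy chain array, Ighv, and 162 to the kappa light chain array, Igkv. Peaks of CTCF, RAD21 and H3K4me3 were placed along both arrays and over 200 kb beyond the outermost V genes. The cells were Bruce-4, an embryonic stem cell line with the C57BL/6J genotype, cultured on gelatinised plates with serum/2i/LIF and crosslinked with 1% formaldehyde for 10 min, with 10000000 cells for each replicate. ChIP-exo, in which immunoprecipitated DNA is digested by an exonuclease up to the crosslinked protein, was carried out without any treatment or genotype comparison: all 4 libraries came from this line. They comprised 1 library for H3K4me3, 2 for CTCF and 1 for RAD21, and the deposited data used here were 1 peak list for each antibody. No value below therefore has a replicate check, no test between conditions was possible, and the intervals given with shares are Wilson 95% intervals that cover counting error alone. For Ighv genes with H3K4me3 and for Igkv pseudogenes, a count of 0 is given with the share that 3 counts of the total would make.

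A V gene encodes most of the variable domain of an antibody chain. In developing B lymphocytes the RAG recombinase joins 1 V gene to D and J genes in the heavy chain locus, or to a J gene in the kappa locus, by cutting at a recombination signal sequence beside each gene. CTCF, which binds DNA through zinc fingers, can halt cohesin, the ring complex that extrudes chromatin loops and of which RAD21 is a subunit. In B cell progenitors, loop extrusion carries distant V genes towards the recombination centre, and H3K4me3, a histone mark of promoters, is bound by RAG2. Embryonic stem cells do not rearrange these loci, so their arrays are unrearranged.

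The Ighv array spanned 2.44 Mb, at chr12:113572929-116009954 (mm10), from Ighv5-1 at the side of the D genes to Ighv1-86 at the far end. It held 120 V segments and 63 V pseudogenes, with a median gene body of 294 bp and a median spacing of 11.5 kb. The Igkv array spanned 3.15 Mb, at chr6:67555636-70704177, from Igkv2-137 at the far end to Igkv3-1 at the side of the J genes. It held 102 V segments and 60 pseudogenes, with a median body of 526 bp and a median spacing of 16.8 kb. Both arrays are repetitive, since V genes of a family are near copies of each other. How reads with several matches were handled is not given in the sources used here, and its part in the results was not tested. The gene table gave no strand, so sides are named by the D or J genes they face.

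The genome-wide lists held 51737 CTCF peaks with a median length of 104 bp, 75897 RAD21 peaks with a median of 140 bp and 21600 H3K4me3 peaks with a median of 682 bp. The cell type label was checked by H3K4me3 within 1 kb of a gene end, which 57.2% of all protein-coding genes carried. Of 8 embryonic stem cell markers 7 carried it, among them Nanog with a 2792 bp peak and Pou5f1 with 2019 bp. Of 8 B lymphocyte markers 2 carried it, Cd79a (294 bp) and Cd79b (463 bp), which encode the signalling chains of the B cell receptor. Of 6 fibroblast markers only Thy1 (432 bp) did.

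The sequence tables used here held promoters of none of the 345 V genes. Promoters are therefore shown for the protein-coding genes with H3K4me3 that lie nearest to the far edge of Ighv and to the J side of Igkv, where the V genes give way to marked promoters. Zfp386 encodes a zinc finger protein and Rpia encodes ribose 5-phosphate isomerase. Both sequences come from RefSeq (GRCm38.p6) and run 5′ to 3′ from 250 bases before to 50 bases after the gene start. The Zfp386 promoter lies on the plus strand at chr12:116047474-116047773, and its capitals mark the 130 bases of a RAD21 peak. The Rpia promoter lies on the minus strand at chr6:70792126-70792425, and its capitals mark the 86 bases that a 116 bp CTCF peak covers. A 93 bp RAD21 peak at chr6:70792128-70792220, not marked, also lies in the Rpia promoter and overlaps that CTCF peak.
Zfp386: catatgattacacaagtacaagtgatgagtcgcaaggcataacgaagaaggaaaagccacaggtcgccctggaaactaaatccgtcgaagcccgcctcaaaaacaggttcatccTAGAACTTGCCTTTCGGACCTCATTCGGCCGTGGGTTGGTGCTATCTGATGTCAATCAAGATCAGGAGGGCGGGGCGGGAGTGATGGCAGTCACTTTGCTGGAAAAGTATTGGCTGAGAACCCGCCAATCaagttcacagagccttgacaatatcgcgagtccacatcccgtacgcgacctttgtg
Rpia: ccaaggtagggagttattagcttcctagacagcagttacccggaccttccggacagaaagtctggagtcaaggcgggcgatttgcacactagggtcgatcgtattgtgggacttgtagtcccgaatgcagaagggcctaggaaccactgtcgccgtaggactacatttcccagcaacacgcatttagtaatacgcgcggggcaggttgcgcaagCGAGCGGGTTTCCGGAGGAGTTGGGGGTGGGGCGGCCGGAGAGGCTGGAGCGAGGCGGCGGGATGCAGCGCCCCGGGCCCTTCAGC
An H3K4me3 peak overlapped each promoter, of 645 bp at Zfp386 and of 653 bp at Rpia. Neither promoter held the octamer ATGCAAAT, a binding site of Oct factors found in immunoglobulin promoters, or the TATA motif TATAAA, on either strand. The core of the CTCF motif (CCA, AG and GGC with 2 free bases between neighbours) was not found in either window. Among 32851 promoters of the same length the octamer occurred in 1.74%, TATAAA in 13.6% and the CTCF core in 2.43%.

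The first question was how many V genes had CTCF, cohesin or the promoter mark close by. CTCF lay within 1 kb of 29 of the 183 Ighv genes, or 15.8% (95% interval 11.3 to 21.8%). RAD21 lay within 1 kb of 37 Ighv genes, or 20.2% (15 to 26.6%). In the Igkv array the numbers were much smaller: CTCF was at 2 of 162 genes, or 1.23% (0.339 to 4.39%), and RAD21 at 4, or 2.47% (0.964 to 6.18%). By the same measure, 7.49% of the 12232 RefSeq genes with a body of at most 1 kb had CTCF and 10.4% had RAD21. These short genes (median 458 bp) are the closer comparison, since a long body meets more peaks. Of protein-coding genes, with a median body of 17329 bp, 56.3% had CTCF and 65.8% had RAD21. Within 1 kb, the Ighv shares thus lay above, and the Igkv shares below, those of short genes, with intervals that did not include the short-gene value. The intervals treat V genes as independent, which neighbours and copies are not, so this comparison is a description and not a test. The Ighv counts depended on peak length and on the windows. When only peaks above their list's median length were kept, 9 genes had CTCF and 20 had RAD21. Without the shortest peaks 27 and 35 genes remained, and 6 and 13 when only the gene body was searched. Short genes were not measured under these settings. The Igkv counts depended on the window too, with CTCF at 7 genes (4.32%, interval 2.11 to 8.65%) and RAD21 at 24 (14.8%, interval 10.2 to 21.1%) within 2500 bp. Of short genes 13.9% had CTCF and 19.2% had RAD21 within 2500 bp, so for RAD21 the Igkv interval then included the short-gene value. The Ighv shares within 2500 bp were 19.1% for CTCF (interval 14.1 to 25.4%) and 27.3% for RAD21 (21.4 to 34.2%). For CTCF the lower bound of Ighv thus lay just above the short-gene value.

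H3K4me3 was at 0 of 183 Ighv genes (interval 0 to 2.06%, where 3 counts of 183 would make 1.64%). It was at 1 of 162 Igkv genes (0.617%, interval 0.109 to 3.41%). Of genes with a body of at most 1 kb 7.27% had H3K4me3 within 1 kb, and of protein-coding genes 64.9%. The single marked V gene was Igkv9-124, where a 429 bp peak ended 258 bp from the gene body. Between the outermost V genes, 3 H3K4me3 peaks lay in Ighv and 7 in Igkv, 294 to 640 bp long and all shorter than the list's median. None of these 10 peaks overlapped CTCF or RAD21. Their density, 1.23 per Mb in Ighv and 2.22 per Mb in Igkv, compared with 8.21 per Mb over the autosomes and X. Genome-wide, 2561 tiles of 1 Mb held a median of 5 H3K4me3 peaks (quartiles 1 and 12). The Ighv density exceeded that of 25.5% of tiles and the Igkv density that of 32.9%, so both lay between the quartiles.

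At most Ighv genes with CTCF both proteins were present. CTCF and RAD21 were found together at 27 Ighv genes, CTCF alone at 2, RAD21 alone at 10 and neither at 144 (78.7%). In Igkv both were present at 2 genes, Igkv7-33 and Igkv8-19, and RAD21 alone at Igkv4-86 and Igkv3-7. With H3K4me3 counted too, 157 Igkv genes (96.9%) had no peak of any kind. No peak fell in the windows of more than 1 V gene, so each marked gene had a peak of its own.

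V segments carried peaks more often than pseudogenes did. In Ighv, CTCF was at 24 of 120 V segments (20%, interval 13.8 to 28%) and at 5 of 63 pseudogenes (7.94%, interval 3.44 to 17.3%), and these intervals overlap. RAD21 was at 30 V segments (25%) and at 7 pseudogenes (11.1%). None of the 60 Igkv pseudogenes had a peak of any of the 3 antibodies (interval 0 to 6.02% for each, where 3 counts of 60 would make 5%). The difference was not tested, because V genes are neighbours and copies of each other and not replicates.

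**Figure D1:**
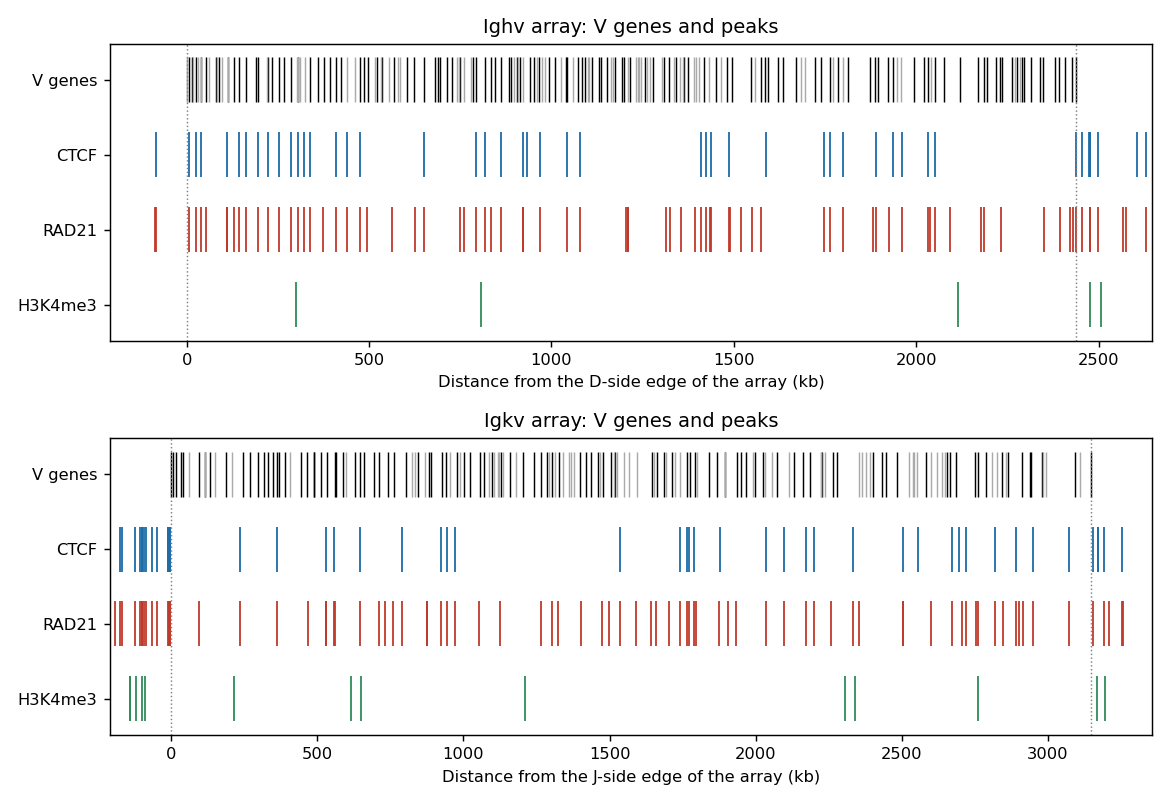
Positions of V genes (black, V segments; grey, pseudogenes) and of CTCF, RAD21 and H3K4me3 peaks in kb from the D-side edge of Ighv (top) and the J-side edge of Igkv (bottom), with 200 kb beyond each edge (dotted lines). CTCF ticks are densest in the D-side part of Ighv and just outside the J-side edge of Igkv, and a stretch of 565 kb inside Igkv has none.

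The number of peaks per Mb was set beside that of the whole genome. Ighv held 38 CTCF peaks, or 15.6 per Mb, and 69 RAD21 peaks, or 28.3 per Mb. Igkv held 29 CTCF peaks, or 9.21 per Mb, and 61 RAD21 peaks, or 19.4 per Mb. The genome averaged 19.7 CTCF and 28.8 RAD21 peaks per Mb. Among 2561 tiles of 1 Mb the median was 15 CTCF peaks (quartiles 6 and 29) and 27 RAD21 peaks (quartiles 13 and 43). The Ighv density of CTCF exceeded that of 51.3% of tiles and the Igkv density that of 35.4%, so both arrays fell within the middle part of the range. The arrays differed in where their peaks lay. In Ighv, windows of 1 kb around the V genes covered 17.1% of the array and held the midpoints of 29 of its 38 CTCF peaks. In Igkv such windows covered 12.8% of the array and held 2 of 29.

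Within Ighv the peaks were unevenly spread. Cut into 10 equal parts of 244 kb and counted from the D side, the array held 8, 8, 1, 6, 2, 3, 2, 5, 3 and 0 CTCF peaks. RAD21 numbered 11, 9, 4, 9, 5, 8, 5, 6, 7 and 5 in the same parts. The first and second parts, at 32.8 CTCF peaks per Mb each, had the highest density. The fourth part (24.6 per Mb) and the eighth (20.5 per Mb) also lay above the genome average, and the farthest part had no CTCF peak. In the 4 parts nearest to the D genes CTCF was at 21 of 83 V genes (25.3%, interval 17.2 to 35.6%), compared with 8 of 100 in the other 6 parts (8%, interval 4.11 to 15%). RAD21 was at 27 (32.5%) and 10 (10%) of the same genes. The boundary between these sets, 975 kb from the D side, was chosen after the positions had been seen.

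In Igkv there was no such gathering at the J side. Equal parts of 315 kb, counted from the J side, held 1, 3, 3, 2, 1, 5, 4, 2, 5 and 3 CTCF peaks. RAD21 numbered 2, 6, 8, 4, 7, 10, 6, 5, 7 and 6. The part nearest to the J genes, with 16 V genes, had 6.35 RAD21 peaks per Mb, the lowest density of the 10 Igkv parts. Every Igkv part had fewer CTCF peaks per Mb than the genome average.

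**Figure D2:**
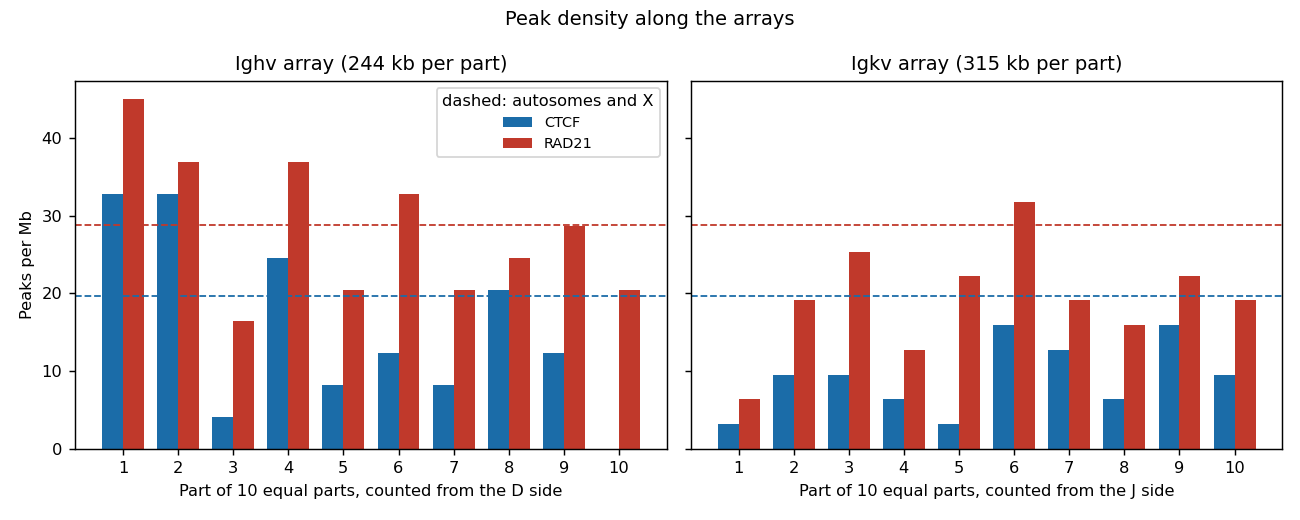
Peaks per Mb in 10 equal parts of each array, counted from the D side of Ighv (left) and the J side of Igkv (right); bars show CTCF (blue) and RAD21 (red), and dashed lines the averages over the autosomes and X. The first and second parts of Ighv hold 32.8 CTCF peaks per Mb, the fourth 24.6 and the eighth 20.5, and no part of Igkv reaches the CTCF average of 19.7 per Mb.

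Long stretches had no CTCF peak. Neighbouring CTCF peaks were a median of 33.6 kb apart in Ighv and 80.5 kb in Igkv, against 17 kb in the genome. The widest gap in Ighv, at chr12:114650650-114981639, ran over 331 kb from Ighv1-14 to Ighv1-47, with 35 V genes and 7 RAD21 peaks wholly inside it, none with CTCF. The next widest were 174 kb, from Ighv3-2 to Ighv7-4, and 161 kb, from Ighv1-53 to Ighv1-59. In Igkv the widest gap was 565 kb, at chr6:69167666-69732941, from Igkv4-75 to Igkv12-47, and it held 37 V genes and 8 RAD21 peaks, again none with CTCF. Gaps of 203 kb, from Igkv4-83 to Igkv13-74-1, and 168 kb, from Igkv2-113 to Igkv16-104, followed.

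The next comparison asked how close the peaks lay to the V genes and on which side. In Ighv the midpoint of a CTCF peak was a median of 114 bp from the nearest V gene body (quartiles 64 and 983 bp), and in Igkv 5894 bp (quartiles 2596 and 14014 bp). In Ighv 17 of 38 CTCF midpoints (44.7%) lay inside or within 100 bp of a V gene, although such windows covered 3.92% of the array. Over the whole list 0.547% of CTCF midpoints lay this close to any gene with a body of at most 1 kb. Of the Igkv CTCF midpoints 1 of 29 did, at Igkv7-33. For RAD21 22 of 69 Ighv midpoints lay this close, against 0.561% of the whole list, and 1 of 61 in Igkv. Ighv holds 75.1 V genes per Mb, whereas 12232 genes with a body of at most 1 kb are spread over 2631 Mb. The whole-list shares are therefore not a like comparison, and the coverage of 3.92% is the closer one.

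The CTCF peaks close to Ighv genes all lay on the same side. Starting from the D side, the first 21 CTCF peaks, 5.55 to 923 kb into the array, each had a midpoint within 181 bp of a V gene. In 20 of these 21 the midpoint lay on the D-facing side of the gene, and at Ighv5-9-1 it lay 1 bp inside that edge. The D-facing side is the one on which an Ighv gene carries its recombination signal sequence. This pattern, and the names given for it, were picked out after the values had been seen. All 21 peaks overlapped RAD21.

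Members of 8 families took part. In what follows, before an Ighv gene means outside its D-facing edge by coordinate, not upstream in the direction of transcription. Of family Ighv5, the family nearest to the D genes, Ighv5-2 had a 299 bp CTCF peak at chr12:113578328-113578626 with its midpoint 27 bp before the gene. Ighv5-17 (182 bp, midpoint 7 bp before the gene), Ighv5-4 (71 bp, 74 bp before it) and Ighv5-9-1 (173 bp) followed the same arrangement. The longest CTCF peak in the array, 470 bp at chr12:113826233-113826702, had its midpoint 181 bp before Ighv5-15 and overlapped its body. This peak also lay within 1 kb of Rpl26-ps3, a ribosomal protein pseudogene.

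Family Ighv2 lies among the Ighv5 genes, and 6 of its 11 members had CTCF. The midpoints lay 88 bp before Ighv2-3, 84 bp before Ighv2-5, 35 bp before Ighv2-6, 67 bp before Ighv2-9-1, 78 bp before Ighv2-6-8 and 61 bp before Ighv2-9. In these 6 genes the peaks were thus confined to a range of 35 to 88 bp from the D-facing edge. Farther in, the midpoints lay 70 bp before Ighv7-1, 61 bp before Ighv7-2 and 120 bp before Ighv7-4. At Ighv11-1 and Ighv11-2, the only members of their family, they lay 108 and 101 bp before the gene. The remaining midpoints lay 74 bp before Ighv4-2, 62 bp before Ighv12-3, 63 bp before Ighv6-3, 48 bp before Ighv6-6 and 33 bp before Ighv10-2. Only 5 of the 17 midpoints within 100 bp belonged to peaks longer than the list's median of 104 bp. Over the 16 that lay outside the body and within 100 bp, the median was 62.5 bp.

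After the first 21 CTCF peaks, and so already before the boundary at 975 kb, the arrangement differed. At 933 kb from the D side a peak lay 6940 bp from Ighv1-5, and at 969 kb one lay 3529 bp from Ighv1-7. None of the first 21 peaks was nearest to an Ighv1 gene, so family and position cannot be told apart. None of the 15 CTCF peaks in the other 6 parts had its midpoint within 200 bp of a V gene, and the nearest was 479 bp from Ighv1-12. On the side that faces away from the D genes lay 14 of these 15, and for 14 of them the nearest V gene was a member of Ighv1, the largest family, with 92 genes. The peaks were short, with a median of 50 bp, against 82 bp for the 23 in the 4 D-side parts. The lists hold no height, and how length relates to strength of binding was not tested.

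Some of the Ighv1 peaks shared a spacing. At 7 of the 18 CTCF peaks in the array or close beyond its far edge for which an Ighv1 gene was nearest (offsets from -6940 to 18573 bp, median 1336 bp), 1587 to 2051 kb from the D side, the midpoint lay 1173 to 1276 bp from the D-facing edge, beyond the opposite edge of the gene, with a median of 1237 bp. Individually, the offsets were 1213 bp at Ighv1-53, 1272 bp at Ighv1-62, 1237 bp at Ighv1-62-3, 1173 bp at Ighv1-64, 1276 bp at Ighv1-65, 1240 bp at Ighv1-67 and 1212 bp at Ighv1-69. The 7 peaks were 40 to 64 bp long, and 5 overlapped RAD21. Of 20 RAD21 peaks without CTCF nearest to an Ighv1 gene (offsets from -5970 to 7559 bp, median 2714 bp), 3 lay at a like offset, at Ighv1-52 (1198 bp), Ighv1-72 (1259 bp) and Ighv1-74 (1135 bp). At Ighv1-59 the CTCF offset was 1739 bp and at Ighv1-86, the outermost gene, 1396 bp, both outside this range. The range was drawn after the values had been seen.

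**Figure D3:**
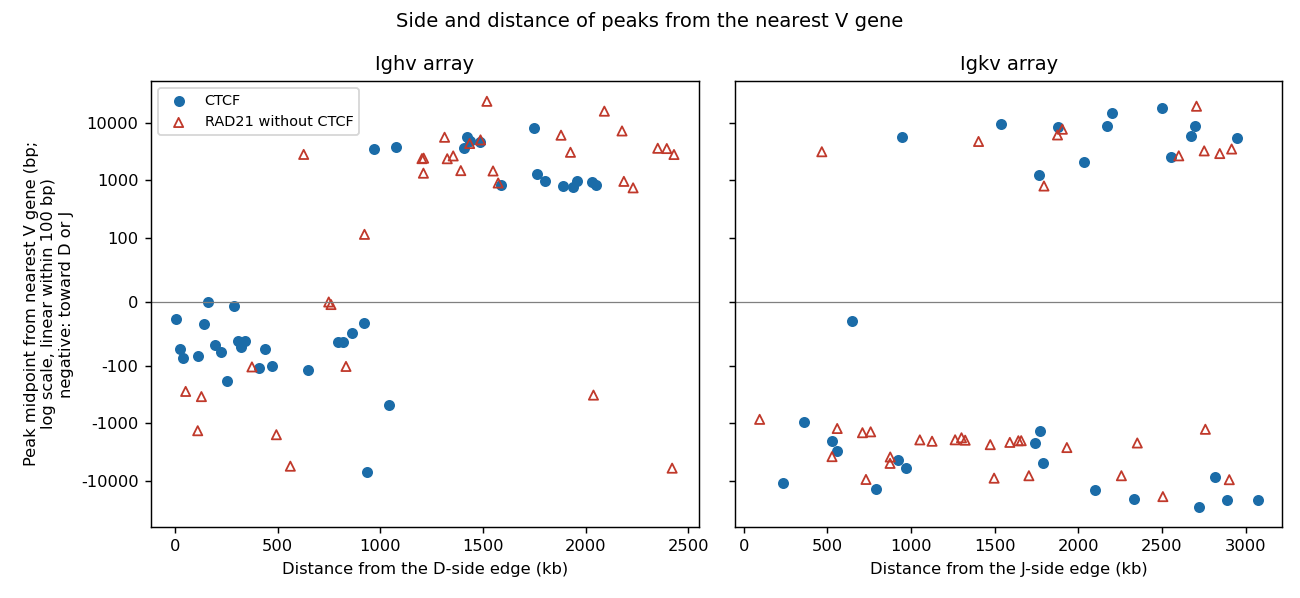
Distance in bp from the midpoint of each peak inside the arrays to the nearest V gene body, on a log scale that is linear within 100 bp, against distance from the D-side or J-side edge; negative values face the D or J genes, circles are CTCF peaks and open triangles RAD21 peaks without CTCF. The first 21 CTCF peaks of Ighv lie at or within 181 bp on the D-facing side of a V gene and later ones mostly on the other side, while Igkv shows no such cluster.

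In Ighv about as many RAD21 peaks lacked CTCF as had it, and in Igkv more lacked it. CTCF peaks overlapped RAD21 in 35 of 38 cases in Ighv (92.1%, interval 79.2 to 97.3%) and in 26 of 29 in Igkv (89.7%, interval 73.6 to 96.4%), beside 81.9% of the whole CTCF list. RAD21 peaks overlapped CTCF in 35 of 69 cases in Ighv (50.7%, interval 39.2 to 62.2%) and in 26 of 61 in Igkv (42.6%, interval 31 to 55.1%), beside 55.9% of the whole RAD21 list. Only the upper bound for Igkv RAD21 lay below the value for the whole list. CTCF peaks in the arrays were short, with medians of 63.5 bp in Ighv and 56 bp in Igkv beside 104 bp in the whole list. RAD21 medians were 123 and 130 bp, beside 140 bp.

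The RAD21 peaks of Ighv differed in place by the presence of CTCF. Those with CTCF had a median distance of 86 bp from a V gene, and the 34 without it had a median of 2392 bp. In the 4 D-side parts, however, 5 of the 11 RAD21 peaks without CTCF still lay within 200 bp of a V gene. The 10 Ighv genes with RAD21 alone comprised Ighv5-6, with a 304 bp peak 277 bp before the gene, Ighv5-12, Ighv4-1, Ighv3-8, the pseudogene Ighv8-1, Ighv6-4, Ighv1-52, the pseudogene Ighv1-68, Ighv1-72 and Ighv1-74. The longest RAD21 peak in the array, 389 bp, lay across the D-facing edge of Ighv12-3 and overlapped its CTCF peak.

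A repeated spacing of RAD21 also appeared in the middle of Igkv, around family Igkv4, the largest there with 33 genes. Of 17 RAD21 peaks nearest to an Igkv4 gene, 15 had no CTCF. In 10 of these 15 the midpoint lay 1771 to 2618 bp from the gene, always on the J-facing side, with a median of 1992 bp. The genes were Igkv4-53, Igkv4-57, Igkv4-59, Igkv4-62, Igkv4-63, Igkv4-72, Igkv4-77, Igkv4-78, Igkv4-79 and Igkv4-91, spread from 1053 to 1932 kb from the J side. Their peaks were 71 to 405 bp long with a median of 239 bp, above the median of 95 bp for RAD21 peaks without CTCF in the whole list. At Igkv4-63, for example, a 333 bp peak lay at chr6:69380256-69380588, with its midpoint 1950 bp from the gene. A RAD21 peak with CTCF also lay in this range, 2160 bp from Igkv4-83 on the J-facing side. The other with CTCF, 4784 bp from Igkv4-86, did not. This range too was drawn after the values had been seen, and because the Igkv4 genes are copies of each other the 10 peaks are not independent.

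By family, CTCF within 1 kb ranged widely in Ighv. Among the 10 Ighv families with at least 4 members it was at 3 of 4 Ighv7 genes (75%, interval 30.1 to 95.4%), 6 of 11 Ighv2 genes (54.5%, interval 28 to 78.7%), 2 of 7 Ighv6 genes (28.6%), 5 of 21 Ighv5 genes (23.8%, interval 10.6 to 45.1%), 1 of 4 Ighv10 genes and 8 of 92 Ighv1 genes (8.7%, interval 4.47 to 16.2%). It was at none of 8 Ighv3, 16 Ighv8, 4 Ighv9 and 4 Ighv14 genes. RAD21 was at 7 Ighv5, 6 Ighv2, 3 Ighv6, 3 Ighv7, 1 Ighv10, 10 Ighv1, 1 Ighv3 and 1 Ighv8 genes and at no Ighv9 or Ighv14 gene. Ighv9 and Ighv14 lie 359 to 727 kb from the D side, within the same stretch as marked genes of other families. In Igkv, 2 of 20 families had a member with CTCF, Igkv7 (its single gene Igkv7-33, by a 39 bp peak) and Igkv8 (Igkv8-19, by a 119 bp peak with its midpoint 936 bp away).

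**Figure D4:**
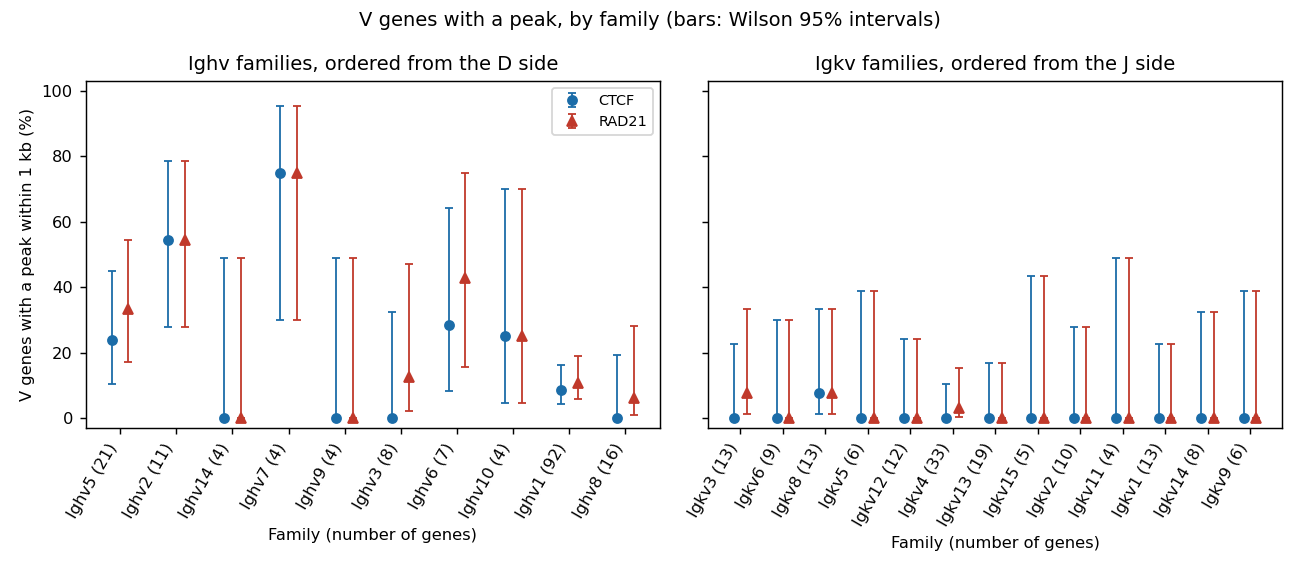
Share of V genes with a CTCF (circles) or RAD21 (triangles) peak within 1 kb for each family of at least 4 genes, ordered by median distance from the D side (Ighv, left) or J side (Igkv, right), with Wilson 95% intervals as bars. Ighv7 and Ighv2 have the highest shares, 75% and 54.5%, and most Igkv families are at 0.

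The regions next to the arrays were mapped because they hold the D, J and constant genes that V genes join. None of 20 D genes, 9 J genes and 9 constant genes of the 2 loci had a peak of any antibody within 1 kb. Of all genes with a body of at most 1 kb, 7.49% had CTCF, 10.4% RAD21 and 7.27% H3K4me3, though heavy chain constant genes are longer. At such shares few peaks would be met among these clustered genes, so the absence is not read as a trait of theirs. From Igha, the constant gene farthest from the V genes, to Ighd1-1, at the V-facing end of the main D cluster, 226 kb held no CTCF, RAD21 or H3K4me3 peak. The 90.7 kb between Ighd1-1 and Ighv5-1, in which the D genes Ighd3-1 and Ighd5-1 also lie, held 1 CTCF peak, 118 bp long at chr12:113487838-113487955, 5.64 kb from Ighd1-1. It lay inside a RAD21 peak of 516 bp, and a second RAD21 peak, of 158 bp, lay 3.04 kb from Ighd1-1. This interval is known to hold the intergenic control region IGCR1, a pair of CTCF binding elements that keeps D genes apart from proximal V genes. Beyond Igha, in the 66.7 kb up to Tmem121, lay 7 CTCF peaks, each with RAD21, at chr12:113216057-113222987, where the CTCF elements at the 3′ end of the heavy chain locus are known.

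In the kappa locus CTCF peaks gathered just outside the array. The 18.4 kb between Igkv3-1 and Igkj1 held 5 CTCF peaks, 5.24, 5.67, 9.12, 10.2 and 12.6 kb from Igkv3-1, of which 4 overlapped RAD21. The peaks were 37 to 100 bp long. This interval is known for the elements Cer and Sis, CTCF-bound sequences that bias recombination towards distant V genes. From Igkj1 to Igkc, the kappa constant gene, there was no peak. The 200 kb beyond the J-side edge held 15 CTCF peaks, or 75 per Mb, compared with 9.21 per Mb inside the array, and 14 of the 15 overlapped RAD21. The longest of these, 824 bp at chr6:70805337-70806160, overlapped a 767 bp RAD21 peak and a 384 bp H3K4me3 peak and lay 101 kb from Igkv3-1.

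The other flanks differed among themselves. Beyond Ighv1-86, 200 kb held 8 CTCF and 8 RAD21 peaks (40 per Mb each) and 2 H3K4me3 peaks, at Zfp386 (645 bp) and at Vipr2 (355 bp), which encodes a receptor for vasoactive intestinal peptide. Beyond Igkv2-137, 200 kb held 5 CTCF and 5 RAD21 peaks and 2 H3K4me3 peaks. The 200 kb on the D side of Ighv held 1 CTCF, 2 RAD21 and no H3K4me3 peak. H3K4me3 peaks in the J-side flank of Igkv reached 949 bp, and 826 bp at Eif2ak3, which encodes the stress kinase PERK. Peaks longer than the genome median for H3K4me3 thus occurred in the Igkv flanks but not inside either array. Of 58 other genes inside the arrays none had H3K4me3, 2 had CTCF (Rpl26-ps3 and Gm25833) and 6 had RAD21. Of all genes with a body of at most 1 kb the shares were 7.27%, 7.49% and 10.4%, though some of the 58 are longer.

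Values for the T cell receptor arrays were set alongside, since they are built and rearranged in the same way. CTCF was at 23 of 130 Trav genes (17.7%) and at 5 of 35 Trbv genes (14.3%), close to the 15.8% of Ighv. RAD21 was at 23 Trav genes and at 8 Trbv genes (22.9%), and H3K4me3 at none in either. CTCF also lay mostly near V genes in Trav, where windows of 1 kb covered 20.7% of the array and held 23 of 34 CTCF midpoints (67.6%), beside 29 of 38 in Ighv (76.3%). In Trbv they covered 12.3% and held 5 of 12 (41.7%). At the shorter distance, 2 of 34 CTCF midpoints in Trav (5.88%) and 1 of 12 in Trbv (8.33%) lay inside or within 100 bp of a V gene, compared with 17 of 38 in Ighv (44.7%). No test was made of these differences.

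Genes of the recombination machinery were listed to show the state of the pathway in these cells, by peaks within 1 kb of a gene end. H3K4me3 was at 27 of 37 genes, CTCF at 15 and RAD21 at 16, beside 57.2%, 26.5% and 38.6% of all protein-coding genes. Rag1, Rag2 and Dntt, which encode the recombinase and the polymerase that adds bases at the joints, had no peak of any kind. Hmgb1 (1827 bp) and Hmgb2 (1414 bp), which encode DNA-bending cofactors of RAG used in all cells, had H3K4me3. Of 13 genes for end joining, the general repair pathway that seals the joints, 10 had H3K4me3, among them Rif1 (1377 bp), Nhej1 (1127 bp), Xrcc5 (1086 bp) and Poll (997 bp). Of 19 regulators of these loci 15 had it, among them Foxo1 (1712 bp), Pou2f1 (1435 bp), Smc3 (1428 bp) and Ikzf1 (1342 bp). No peak of any kind was at Paxx and Trp53bp1 among the end joining genes, or at Rad21, Nipbl and Pou2af1 among the regulators. Pax5, the B lineage factor, had CTCF (86 bp) and RAD21 (107 bp) at an end and no H3K4me3. A mark at a gene end does not measure expression.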

How the data were processed

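ChIP-exo libraries against H3K4me3 (1), CTCF (2) and RAD21 (1) were made from Bruce-4 cells, as the labels' protocols describe. Tools named in the submitters' processing notes were MACS2, bedtools 2.30.0, Bowtie2 2.4.5 and Picard 2.27.4, with the build mm10. Not given in the sources used here were their roles, the peak threshold, any control library and the handling of reads with several matches. In the files the authors deposited each list is a chromosome, start and end, so position and length (unit other) are the only values, and depth is unknown. The CTCF list is a union, recorded under the second CTCF library. A list of the first was not analysed here.

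Genes came from RefSeq GRCm38.p6. Overlaps of at least 1 bp on 19 autosomes and X were computed with pandas 2.3.3, numpy 2.4.6 and scipy 1.17.1 in Python 3.11.15, and figures in matplotlib 3.10.9. The overlap code was tested on simulated data, where it found all 600 of 600 planted overlaps among 2000 genes. Members and lists were chosen with earlier results of these data known. Named were, per array and antibody, V genes at the 8 longest peaks, the outermost V genes, the longest peaks per region, the 3 widest CTCF gaps and families of at least 4. Other names were chosen after their values were seen. A further gene near the arrays is not reported here. Alternatives varied window, peaks kept, genes kept, overlap rule and flank.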

Additional observations from a re-analysis of the deposited data

How the results depend on the processing

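No paired analysis was possible because each antibody has 1 list and no test was made. Under alternatives, the number of Ighv genes with CTCF (29) or RAD21 (37) fell to 6 and 13 with the gene body alone and to 9 and 20 with only peaks above the list's median length. The other windows, the removal of the shortest peaks, midpoints and V segments alone kept both within 1.5 times. For Igkv, CTCF genes numbered 0 with the body alone, 1 at 500 bp, 7 at 2500 bp and 1 with the longer peaks or without the shortest. RAD21 genes numbered 1 with the body alone, at 500 bp and with the longer peaks, and 24 at 2500 bp, of which 12 were Igkv4 genes. H3K4me3 genes numbered 0 with the body alone and with the longer peaks. With the longer peaks, densities per Mb fell to 4.1 (CTCF), 11.9 (RAD21) and 0 (H3K4me3) in Ighv and to 2.86, 8.26 and 0 in Igkv. When both lists were cut to peaks above their median length, the share of CTCF peaks with RAD21 was 70% in Ighv. That of RAD21 peaks with CTCF was then 24.1% in Ighv and 26.9% in Igkv. A longer peak with a shorter partner counted as without it, so these shares do not show how often longer peaks overlap. Median distances to a V gene moved to 277 bp (Ighv RAD21) and 8843 bp (Igkv CTCF) with the longer peaks. With V segments alone they were 631 bp (Ighv CTCF), 2388 bp (Ighv RAD21) and 8843 bp (Igkv CTCF). Without the shortest peaks, the median length of Igkv CTCF peaks was 85 bp. The 17 close CTCF midpoints of Ighv, in alternatives chosen after seeing the data, were 6 within 50 bp and 5 with the longer peaks. Of 24 flank densities under other flank widths 10 moved by over 1.5 times, and of 230 family counts 46 did. On the D side of Ighv the CTCF density was 10 per Mb over 100 kb and 40 per Mb over 500 kb, which takes in the peaks beyond Igha. Absence of a peak shows only that none was called.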
